A study of Homo sapiens with 24 samples.

Results

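The genes described here are the zinc finger genes of human chromosome 19: every gene of the expression table that GENCODE 29 types as protein-coding, places on chromosome 19 and names ZNF followed by a number. The annotation lists 249 such genes, and 167 of them were among the 12285 genes of the table. The other 82 were not analysed here, since a gene entered the table only if it reached 1 FPKM (fragments per kilobase of transcript, scaled to library size) in at least 12 time points. The samples were 24 libraries of total RNA from K562, an established human leukaemia line with erythroid features, grown in RPMI with 10% bovine calf serum and P/S. Cells were sorted by size with centrifugal elutriation into a synchronous population, and RNA was then collected at intervals of 2 h up to 46 h. There was 1 library for each time point and no untreated or second group, so the only variable was time.

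Most zinc finger proteins of this chromosome carry a tandem row of C2H2 fingers, each of which contacts a few bases of DNA, behind an amino-terminal KRAB box. The KRAB box binds TRIM28, a scaffold that brings the histone methyltransferase SETDB1 and HP1 proteins to the bound DNA and so silences it, very often at transposable elements. The genes arose by repeated tandem duplication and lie in clusters of related neighbours, where close copies can share sequencing reads.

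Of the 167 genes, 138 held a KRAB box pattern in the longest reading frame of their annotated transcripts and 29 did not. A SCAN pattern, which marks a domain for pairing between zinc finger proteins, was found in 3, among them ZNF274, which had both. The number of C2H2 fingers had a median of 13 and ranged from 0 in ZNF738 to 32 in ZNF91. Annotated neighbours less than 500 kb apart formed 20 position clusters, here named by their first and last gene, and 8 of these held at least 10 genes of the table.

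A pattern shared by neighbours concerned the position cluster from ZNF101 to ZNF254, which lies on the short arm and holds ZNF91 and ZNF43. Promoters of 4 of its genes are shown because they make visible what these neighbours share, and those of 3 genes elsewhere for contrast. The 4 stand at the top of its genes in the test of order over 24 h described below. The fourth, ZNF91, tied there with ZNF430, which had the same adjusted permutation p of 0.0228 and is not shown. ZNF529 is the highest ranked late-phase gene outside it, and ZNF628 and ZNF324 are the highest ranked early-phase genes. Each sequence runs 5′ to 3′ on the gene's strand, from 250 bases before the annotated start to 50 bases after it (RefSeq, GRCh38.p14). Capitals mark CCAAT on either strand (CCAAT or ATTGG), the box bound by the factor NF-Y.
ZNF681, chr19:23758842-23759141, minus strand: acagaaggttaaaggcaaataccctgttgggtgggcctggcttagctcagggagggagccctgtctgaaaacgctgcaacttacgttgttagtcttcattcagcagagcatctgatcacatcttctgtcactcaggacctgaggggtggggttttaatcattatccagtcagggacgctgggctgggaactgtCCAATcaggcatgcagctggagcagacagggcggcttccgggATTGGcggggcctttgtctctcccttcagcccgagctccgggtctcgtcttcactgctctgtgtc
ZNF626, chr19:20661522-20661821, minus strand: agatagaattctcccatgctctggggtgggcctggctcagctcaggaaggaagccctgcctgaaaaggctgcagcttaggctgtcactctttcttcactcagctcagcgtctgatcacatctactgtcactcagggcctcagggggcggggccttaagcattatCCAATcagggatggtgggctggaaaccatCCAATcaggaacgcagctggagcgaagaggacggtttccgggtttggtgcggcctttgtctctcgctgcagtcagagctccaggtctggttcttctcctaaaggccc
ZNF726, chr19:23914636-23914935, plus strand: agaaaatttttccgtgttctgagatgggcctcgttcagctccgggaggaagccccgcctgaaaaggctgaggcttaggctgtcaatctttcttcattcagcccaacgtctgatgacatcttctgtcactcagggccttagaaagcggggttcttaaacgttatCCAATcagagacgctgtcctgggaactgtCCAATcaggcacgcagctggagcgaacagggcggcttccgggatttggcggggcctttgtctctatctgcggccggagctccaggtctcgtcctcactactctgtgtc
ZNF91, chr19:23395422-23395721, minus strand: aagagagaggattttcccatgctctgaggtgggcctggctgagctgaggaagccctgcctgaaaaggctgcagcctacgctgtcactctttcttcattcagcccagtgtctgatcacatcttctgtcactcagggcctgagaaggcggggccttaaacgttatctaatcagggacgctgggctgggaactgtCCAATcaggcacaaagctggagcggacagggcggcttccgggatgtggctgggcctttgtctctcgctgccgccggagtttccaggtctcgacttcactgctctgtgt
ZNF529, chr19:36605208-36605507, minus strand: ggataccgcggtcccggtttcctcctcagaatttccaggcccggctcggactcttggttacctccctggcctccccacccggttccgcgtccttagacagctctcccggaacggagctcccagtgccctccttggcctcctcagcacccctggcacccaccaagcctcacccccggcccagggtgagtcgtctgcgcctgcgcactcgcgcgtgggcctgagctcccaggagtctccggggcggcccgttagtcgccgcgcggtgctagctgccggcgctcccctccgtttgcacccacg
ZNF628, chr19:55476367-55476666, plus strand: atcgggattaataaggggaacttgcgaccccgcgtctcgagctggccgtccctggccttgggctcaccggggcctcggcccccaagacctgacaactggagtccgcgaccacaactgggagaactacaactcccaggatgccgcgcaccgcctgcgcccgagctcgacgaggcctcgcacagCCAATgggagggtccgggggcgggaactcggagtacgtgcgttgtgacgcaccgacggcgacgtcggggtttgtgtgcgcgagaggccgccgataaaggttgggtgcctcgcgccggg
ZNF324, chr19:58466830-58467129, plus strand: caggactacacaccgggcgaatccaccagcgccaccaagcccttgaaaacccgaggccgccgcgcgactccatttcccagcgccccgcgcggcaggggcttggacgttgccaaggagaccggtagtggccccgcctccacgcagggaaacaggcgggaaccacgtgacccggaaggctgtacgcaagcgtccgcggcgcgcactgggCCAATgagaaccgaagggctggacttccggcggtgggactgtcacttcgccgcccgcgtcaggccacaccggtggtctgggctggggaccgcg
Of the 20 genes of this cluster in the table, 18 had a promoter in RefSeq, and all 18 held at least 1 CCAAT. In 9 of the 18 (ZNF93, ZNF626, ZNF430, ZNF714, ZNF431, ZNF493, ZNF43, ZNF675 and ZNF726) a second CCAAT lay 28 to 30 bases from the first in the same direction. In ZNF626 they began 86 and 57 bases before the start, and in ZNF726 87 and 58 bases before it. At least 1 CCAAT was present in 63 of the 133 promoters of the other chromosome 19 ZNF genes, and in 37.6% of the 8363 promoters of protein-coding genes of the table that could be matched by symbol. Among promoters with a GC of 60% or less these shares were 36 of 54 and 46.4%. Promoters of the cluster had a GC of 50.7% to 63.7%. The pair with that spacing was in 0 of the 133, and in 0.897% of the 8363. Among stretches of 12 bases, the one held by most promoters of the cluster was CTGTCACTCAGG, in 11 of 18, against 1 of the 133 and 0.215% of the 8363. This stretch and the spacing were chosen because they recurred in these promoters, so their shares are a description. The stretch was in 18 of the 8363 and the pair in 75, and the 8363 include the promoters of the cluster. Promoters of the cluster were poorer in CpG, with a median of 10 CpG in 300 bases, against 21 in all 151 matched ZNF promoters and 27 in those of the table. A match of letters is a description and not a bound site.

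The levels of the 167 genes were low. Their mean over the 24 time points had a median of 4.53 FPKM, with quartiles of 2.58 and 8.46 FPKM, against 13.8 FPKM for the 12253 genes of the table that averaged 1 FPKM or more. All 167 averaged 1 FPKM or more and none was listed at 0 at any time point, while 88 had a mean under 5 FPKM. The depth behind these values is unknown, as reads could not be recovered from them. Summed over the 167, the level ran from 1055 FPKM at 10 h to 1438 FPKM at 18 h. As a share of the table's sum at the same time point it ran from 0.210% at 10 h to 0.244% at 24 h, with 0.243% at 18 h.

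**Figure D1:**
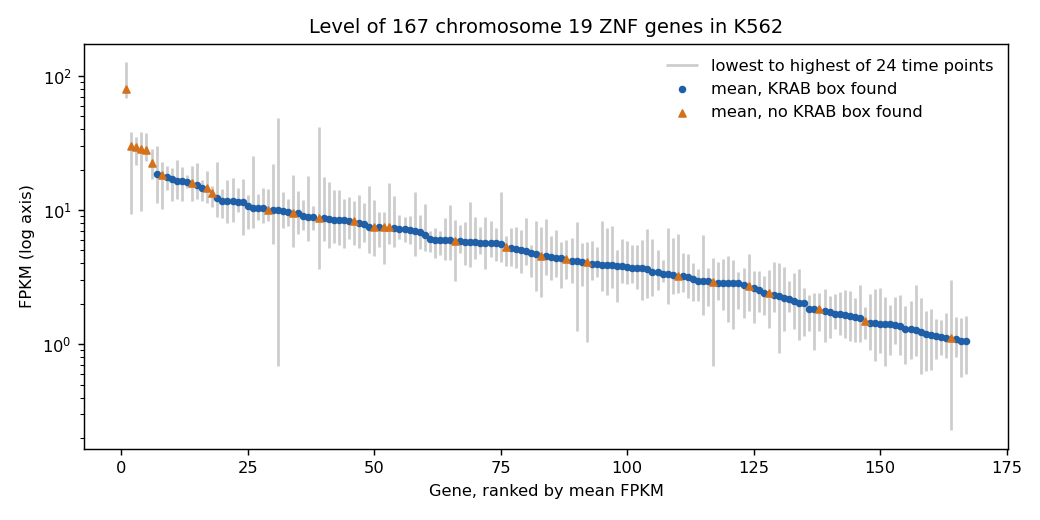
Level of each of the 167 chromosome 19 ZNF genes in FPKM (log axis), ranked by mean; points are means over 24 time points, blue with and orange without a KRAB box pattern, and grey lines run from the lowest to the highest time point. The 6 highest means belong to genes without the pattern, led by ZNF146 at 79.7 FPKM, and most genes lie under 10 FPKM.

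The highest level was that of ZNF146, a protein made of fingers alone, which ran from 68.1 FPKM at 46 h through a median of 77.3 to 125.9 FPKM at 18 h. Outside 16 h and 18 h it never exceeded 84.5 FPKM. ZNF428 followed with a lowest value of 9.33 FPKM at 18 h, a median of 31.3 and a highest of 38.1 FPKM at 12 h. ZNF121 lay between 21.5 and 35.2 FPKM with a median of 29.2, and ZNF787 between 9.86 and 38.0 FPKM with a median of 28.9. At 18 h these 2 lay on opposite sides of their medians, ZNF121 at 34.1 FPKM and ZNF787 at its lowest value. ZNF580 (median 27.4 FPKM), ZNF83 (22.1), ZNF480 (18.4), ZNF581 (18.9), ZNF317 (17.2) and ZNF544 (16.7) completed the 10 highest means. Together the 10 made up 25.6% of the summed level of the 167. Of these 10, ZNF317, ZNF480 and ZNF544 held a KRAB pattern. Over all 167, the 29 genes without it had a median level of 7.50 FPKM, and the 138 with it 4.14 FPKM.

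Members with a known role were mostly of moderate level. ZNF91, which represses SVA retrotransposons, ran from 1.24 FPKM at 10 h through a median of 2.04 to 3.76 FPKM at 0 h. ZNF93, which represses a family of LINE-1 elements, ran from 4.76 FPKM at 8 h through 7.27 to 15.0 FPKM at 18 h. ZNF274, which takes SETDB1 to the 3′ ends of zinc finger genes, stayed within 14.7 and 18.2 FPKM. ZNF587 and its close copy ZNF417, both repressors of HERV-K, had medians of 16.9 and 2.31 FPKM. Of the 50-base stretches in the transcripts of ZNF417, 30.5% also occur in ZNF587, so the split of reads between them is uncertain. Among the rest of the list, median levels were 5.91 FPKM for ZNF224, 5.38 for ZNF808, 6.60 for ZNF43, 9.51 for ZNF675, 3.30 for ZNF649, 9.34 for ZNF611, 2.79 for ZNF304 and 1.12 for ZNF331, an imprinted gene. Of the 19 genes listed for known roles, 13 were in the table.

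The study set out to find time points at which transcript levels depart from their neighbours across the transcriptome (STRIPEs), and named 16 h and 18 h as such and 32 h as a milder case. Here the deviation is the mean log2(FPKM + 1) over 16 h and 18 h minus the straight line between 14 h and 20 h, a scale that understates the change of low genes. There were no replicates, so no p-value is given and the same measure at 16 other pairs of time points serves as the reference. The median deviation of the 167 genes was 0.19, against 0.14 for all genes, and 118 of 167 (70.7%) lay above 0, where 58.1% of all genes did. At the 16 reference pairs the median of the 167 stayed between -0.075 and 0.088. Few reached 2-fold: 7 of 167 lay at least 2-fold above the flanks, where 8.95% of all genes did, and 4 lay at least 2-fold below, where 7.11% did. Both shares were lower than in the whole table.

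Against their own reference pairs, 74 of the 167 exceeded the highest, where 43.6% of all genes did, and 17 fell short of the lowest, where 28% did. The share above was that of the table, and the share below was smaller. The 194 ZNF genes of other chromosomes in the table, taken by the same naming rule, had a median deviation of 0.24, and 644 other protein-coding genes of chromosome 19 had one of -0.39. The latter had a median GC content of 60.7%, against 44.3% for the 167.

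**Figure D2:**
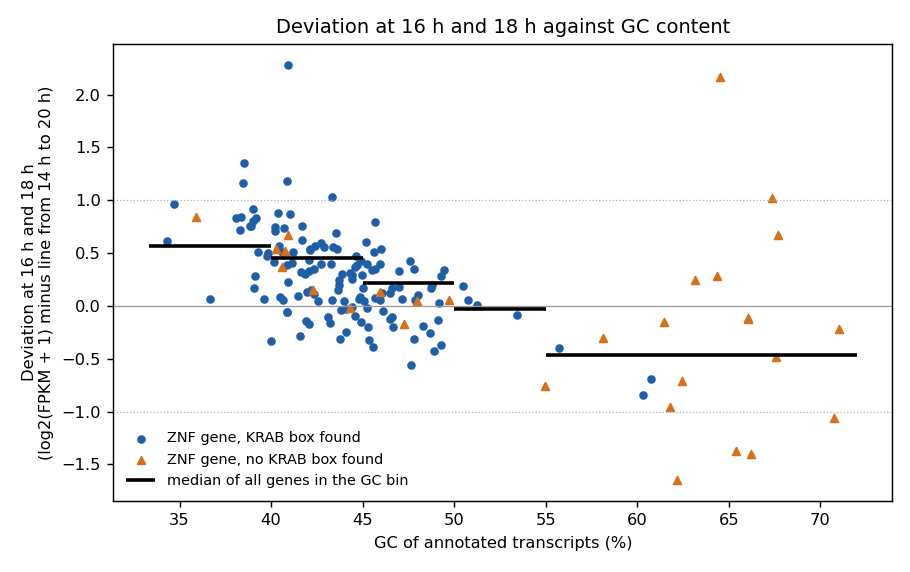
Deviation at 16 h and 18 h in log2(FPKM + 1) against the GC content of annotated transcripts in %, for 138 ZNF genes with a KRAB box pattern (blue) and 29 without (orange); black bars are medians of all genes of the table per GC bin and dotted lines mark 2-fold. The points descend with GC as the bars do, and the 4 genes at least 2-fold below have a GC above 60%.

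The deviation followed GC content within the family. Below 40% GC the median of 21 ZNF genes was 0.76 and that of the 1479 genes of the whole table was 0.57. Between 40% and 45% the values were 0.32 for 75 ZNF genes and 0.45 for all genes, and at 55% or more -0.35 for 20 ZNF genes and -0.47 for all genes. Over the 167 genes Spearman's rho between GC and deviation was -0.57, and over 12148 genes of the table -0.58, both across genes of the same libraries, which are not independent replicates. With the smooth GC trend of all genes removed, the median of the 167 turned from 0.19 to -0.093. That of all genes went from 0.14 to -0.0017, since the step also takes out their common offset. The sign for the 167 therefore depended on that step. Upper-quartile scaling brought their median to 0.021 and that of all genes to -0.063. The 138 genes with a KRAB pattern had a median of 0.25 and a median GC of 43.7%, and the 29 without it a median of -0.016 and a GC of 61.8%.

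Of the genes averaging 3 FPKM or more, the one farthest above its flanks was ZNF302, with 34.6 and 48.4 FPKM at 16 h and 18 h between 9.61 FPKM at 14 h and 6.01 FPKM at 20 h. Its deviation was 2.28 on the log2(FPKM + 1) scale, but ZNF302 was also high at 6 h (16.9 FPKM) and 32 h (19.8) and low at 22 h (0.687), 28 h (0.965) and 30 h (1.77). Its own reference pairs ranged from -2.41 to 1.90. ZNF579 went from 7.09 FPKM at 14 h to 41.8 FPKM at 18 h and was back at 6.85 FPKM at 20 h. Outside those hours ZNF579 lay between 3.66 and 9.94 FPKM, and its GC was 64.5%. ZNF414 (deviation 1.02, GC 67.4%) was the other gene of these 8 with a GC above 60%.

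The other 5 came from the cluster of ZNF91. ZNF100 went from 7.32 FPKM at 14 h to 19.2 and 25.1 FPKM and returned to 8.78 at 20 h, a deviation of 1.35. ZNF675 had 7.10, 17.4, 22.2 and 9.28 FPKM at 14 h, 16 h, 18 h and 20 h, a deviation of 1.18. ZNF708 (1.16), ZNF93 (1.03) and ZNF254 (0.96) followed. In each of the 5 the values at 16 h and 18 h lay above all the other 22 time points.

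Below the flanks, ZNF428 stood at 35.0 FPKM at 14 h and 35.1 FPKM at 20 h, with 11.8 and 9.33 FPKM between them, a deviation of -1.65. ZNF524 went from 5.64 to 1.04 and 1.05 FPKM and was at 3.41 FPKM at 20 h, a deviation of -1.40. ZNF787 (-1.37), ZNF581 (-0.96), ZNF324 (-0.84), ZNF576 (-0.76), ZNF296 (-0.48) and ZNF544 (-0.43) followed. Of these 8, ZNF296 stayed within the range of its own reference pairs, and it turned to 0.48 with the GC trend removed. ZNF324 and ZNF544 held a KRAB pattern and the other 6 did not. ZNF628, with a mean of 2.93 FPKM, also lay 2-fold below, at 0.989 and 0.687 FPKM against 3.03 and 2.61 FPKM at 14 h and 20 h.

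Erythroid markers deviated at the same hours. The 9 analysed (HBG1, HBG2, HBE1, HBZ, GATA1, KLF1, TAL1, TFRC and ALAS2) summed to between 2135 and 7712 FPKM. Their median deviation was -1.20, with 6 at least 2-fold below the flanks, where 7.11% of all genes were, and 0 above. Of the lymphoid markers CD3E, MS4A1 and CD79A, and of the fibroblast markers COL1A1, COL3A1, DCN and LUM, were not among the genes of the table. Those in the table had deviations of 0.41 (PTPRC), -0.057 (CD3D), 0.25 (COL1A2) and 0.34 (VIM), and none reached 2-fold. The part of these differences in the deviations of the ZNF genes was not tested. In a bulk sample fewer cells of a type and less RNA per cell cannot be told apart.

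At 6 h and 32 h single time points were set against the mean of their neighbours. At each of the 2 hours 1 of the 167 genes, ZNF302, was at least 2-fold above, where 0.571% of all genes were at 6 h and 0.449% at 32 h. None was 2-fold below, where 0.865% of all genes were at 6 h and 1.01% at 32 h. The median of the 167 nonetheless shifted against the table: at 6 h it was -0.066 and the median of all genes 0.055, and at 32 h -0.091 against 0.032. At 32 h this was the lowest median of the 167 at any of 18 single time points measured in this way, and at 6 h the next lowest. Of the 167 genes, 20 had their lowest value at 6 h, 17 at 8 h and 19 at 32 h.

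**Figure D3:**
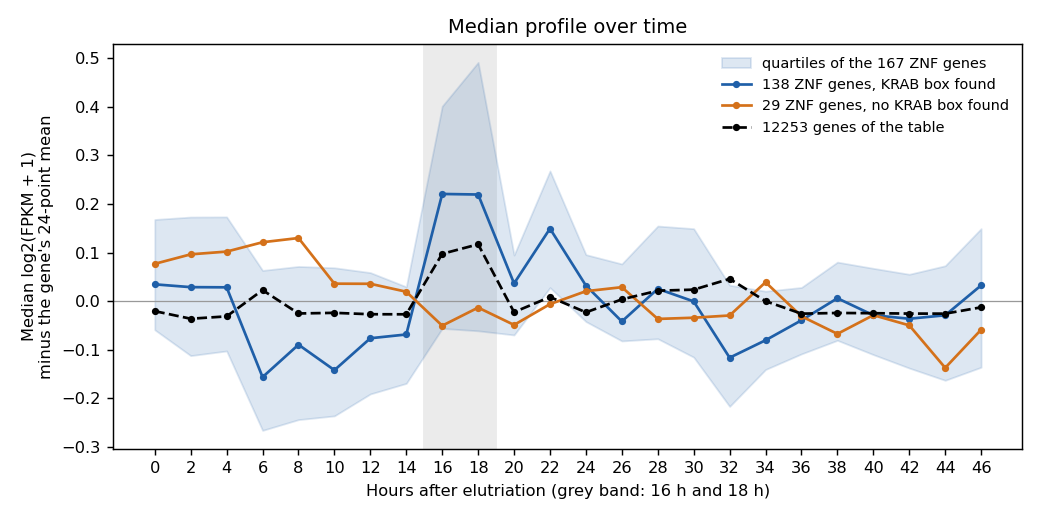
Median change of log2(FPKM + 1) from each gene's own 24-point mean against hours after elutriation, for ZNF genes with (blue) and without (orange) a KRAB box pattern and for all genes of the table (dashed black); the blue band spans the quartiles of the 167 ZNF genes and the grey band marks 16 h and 18 h. The genes with a KRAB pattern dip to -0.16 at 6 h and -0.12 at 32 h and peak at 0.22 at 16 h and 18 h, while those without it are highest, at 0.13, at 8 h.

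Over the whole series the median profile of the family varied more than that of the table, as in the other groups given below. On the log2 scale, relative to each gene's own mean, it was 0.044 at 0 h, -0.12 at 6 h and -0.092 at 10 h, then 0.18 and 0.19 at the hours 16 h and 18 h, 0.14 at 22 h and -0.084 at 32 h. At 22 h 131 of the 167 genes lay above their own mean, at 32 h 52 did, and at 14 h 51 did. The median of all genes was 0.0085 at 22 h and 0.046 at 32 h. That of other protein-coding genes of chromosome 19 ran from 0.15 at 6 h to -0.43 at 18 h. For ZNF genes of other chromosomes the median ran from -0.067 at 14 h to 0.20 at 18 h. Genes with and without a KRAB pattern differed in the first hours: at 6 h their medians were -0.16 and 0.12, and at 8 h -0.090 and 0.13.

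To ask whether the levels follow the assumed cycle of 24 h, each gene was ranked with the JTK statistic, which compares the order of its 24 values with cosine curves of 12 phases. P-values came from 100000 permutations of the order and were adjusted over all 12285 genes. Successive samples of 1 culture are not independent, so these p-values may be too small. The test called 31 of the 167 genes, 18.6%, where 13% of all genes were called. Among 194 ZNF genes of other chromosomes 39 were called, and among 644 other protein-coding genes of chromosome 19 119 were, 18.5%. Among genes averaging 5 FPKM or more the shares were alike, with 12 of 79 ZNF genes called (15.2%) and 15.6% of all genes. Leaving out 16 h and 18 h, 36 of the 167 were called and 24 of the 31 remained, all with a phase within 2 h of the former.

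**Figure D4:**
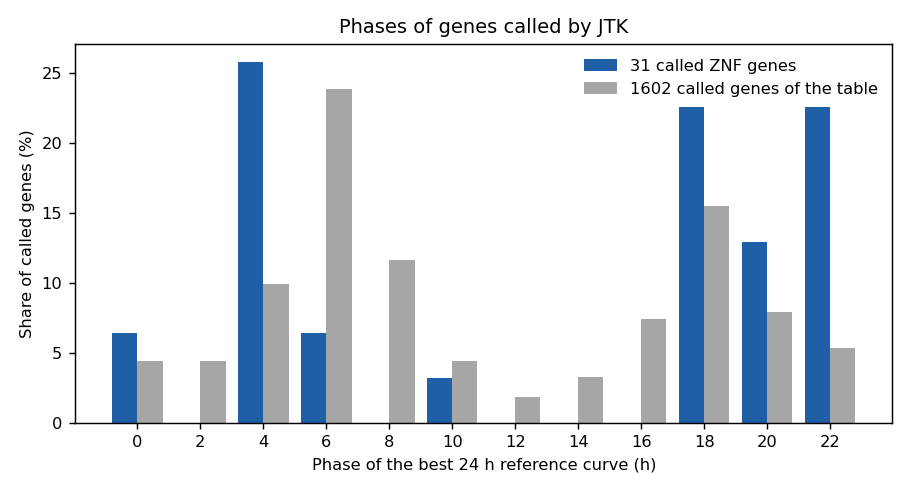
Share of called genes in % at each phase in h of the best-fitting 24 h curve, for the 31 called ZNF genes (blue) and the 1602 called genes of the table (grey). The called ZNF genes stand at 18 h to 0 h (20 genes) and at 4 h to 10 h (11 genes), while the table's highest bar is at 6 h.

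The called genes fell into 2 sets of phases. In 20 the best curve peaked at 18 h, 20 h, 22 h or 0 h, phases that 33.2% of the 1602 called genes of the table had. In 11 it peaked between 4 h and 10 h, as in 49.8% of the called genes of the table. Of the 20 late genes 19 held a KRAB pattern and their GC content ran from 34.3% to 45.6%. Of the 11 early genes 5 held it, and their median GC was 60.3%. The table's called genes differed likewise, with a median GC of 41.6% for the late phases and 58.3% for the early ones. The grouping of phases was made after the calls were seen.

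The early set was led by ZNF628 (adjusted permutation p = 0.00178), which had 4.36 FPKM at 4 h and 3.88 FPKM at 28 h. Its lowest values outside 16 h and 18 h were 2.06 FPKM at 32 h and 2.18 FPKM at 44 h. ZNF324 ran from 1.26 FPKM at 18 h through a median of 3.85 to 8.12 FPKM at 4 h. Its neighbour ZNF446, also called with phase 4 h, shares 29.9% of its 50-base stretches with ZNF324, and the pair correlated with r = 0.86 over 22 time points, so their reads may not be separate. ZNF565 had phase 4 h and ZNF576 phase 6 h, with medians of 1.36 and 7.59 FPKM. ZNF324B, ZNF784, ZNF230, ZNF526, ZNF333 and ZNF296 made up the rest. Of the 50-base stretches of ZNF324B, 13.1% also occur in ZNF324.

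The late set was led by ZNF529 (adjusted permutation p = 0.00178, phase 18 h), which ran from 5.24 FPKM at 6 h through a median of 7.82 to 12.95 FPKM at 18 h. ZNF823 (phase 18 h) lay between 2.11 FPKM at 6 h and 4.03 at 18 h. ZNF525 (phase 20 h) lay between 2.58 FPKM at 6 h and 5.52 at 44 h. ZNF681, ZNF626 and ZNF726, the other 3 among the 10 highest ranked, all belong to the cluster of ZNF91. The 20 late genes did not repeat their first trough in full: their median change from the mean was -0.29 at 6 h and -0.33 at 8 h, and -0.090 and -0.14 at 30 h and 32 h. None of the 20 lay above its own mean at 6 h or 8 h, and 7 did at 30 h and 3 at 32 h.

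Likeness between genes varied among position clusters. Over the 22 time points without 16 h and 18 h, the median Pearson r of log2(FPKM + 1) was 0.22 for 1543 pairs within a cluster and 0.10 for 12318 pairs between clusters. For the 190 pairs of the cluster from ZNF101 to ZNF254 it was 0.55, and 175 of the 190 were above 0. In the other clusters with at least 10 genes of the table it lay between 0.15 and 0.33. All 24 time points gave 0.69 for this cluster. These values are a description, since all pairs share the same libraries.

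**Figure D5:**
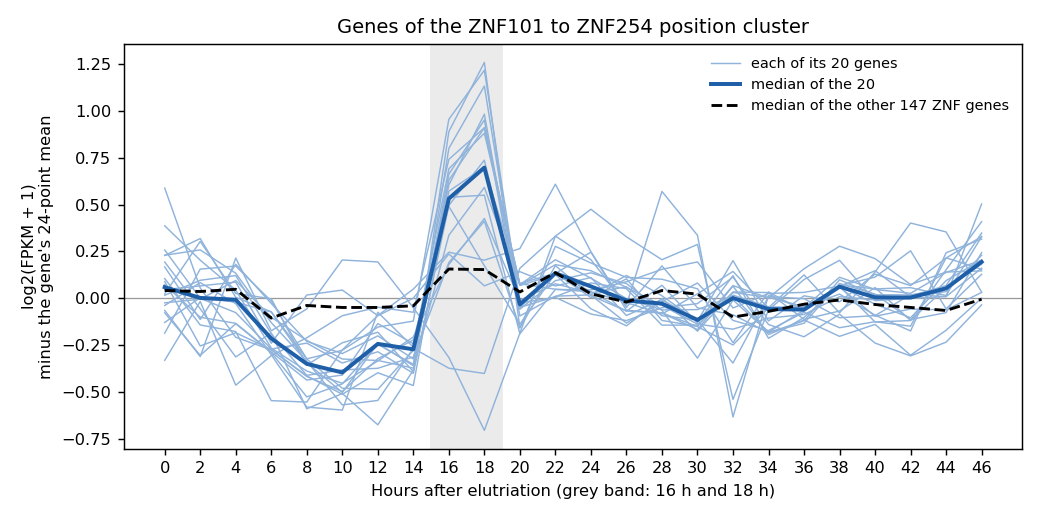
Change of log2(FPKM + 1) from each gene's own 24-point mean against hours after elutriation, for each of the 20 genes of the position cluster from ZNF101 to ZNF254 (thin lines), their median (thick line) and the median of the other 147 chromosome 19 ZNF genes (dashed); the grey band marks 16 h and 18 h. The median of the 20 is -0.40 at 10 h and 0.70 at 18 h and -0.057 at 34 h, while the dashed line stays between -0.11 and 0.16.

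The 20 genes of this cluster summed to 156.7 FPKM at 0 h, to 111.9 and 113.0 FPKM at 8 h and 10 h, and to 215.0 and 248.1 FPKM at 16 h and 18 h. The sum was 144.4 FPKM again by 20 h. At 6 h 0 of the 20 lay above their own mean and at 22 h 20 of the 20 did. At the hours 24 h after the low values the sum was 140.1 FPKM at 32 h and 140.2 at 34 h, so the trough of the first day did not recur at that size. Of the 20, 18 had a deviation above 0 at 16 h and 18 h, with a median of 0.81, where 58.1% of all genes lay above 0. ZNF101 (-0.39) and ZNF726 (-0.33) were the exceptions. Above their own reference pairs lay 16 of the 20, where 43.6% of all genes did. JTK called 8 of the 20 (ZNF254, ZNF726, ZNF257, ZNF626, ZNF91, ZNF681, ZNF430 and ZNF714), where 13% of all genes were called. All 8 had a phase from 18 h to 0 h, as did 33.2% of the called genes of the table.

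ZNF681 ran from 3.14 FPKM at 14 h through a median of 4.33 to 7.07 FPKM at 18 h, and its pair with ZNF43 had r = 0.87 over 22 time points. ZNF626 ran from 2.13 FPKM at 8 h to 6.01 FPKM at 22 h. ZNF726 was lowest at 10 h with 5.21 FPKM and highest at 46 h with 12.05 FPKM, and was low rather than high at 18 h (5.97 FPKM). The 5 highest means of the cluster were those of ZNF714 (15.9 FPKM), ZNF431 (11.6), ZNF101 (11.4), ZNF100 (10.3) and ZNF675 (9.97).

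Sequence shared between transcripts was small in this cluster: of the 50-base stretches of each gene at most 4.83% occur in another annotated ZNF gene of the chromosome, with a median of 2.09%. Elsewhere 21 of 147 genes exceeded 10%, up to 85.9% in ZNF320, most of whose stretches occur in ZNF468. GC content was low in the cluster, with a median of 39.2%. Among genes under 45% GC, the 18 of the cluster had a median deviation of 0.83 and a median r of 0.58, and the 78 elsewhere had 0.31 and 0.16. Their median GC was 39.1% in the cluster and 42.2% elsewhere. Among genes under 40% GC, the median deviation was 0.83 for 12 genes of the cluster and 0.50 for 9 elsewhere. There r was 0.55 and 0.17, and 0.69 and 0.44 over all 24 time points. The part of GC content in the shared course was otherwise not tested.

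The remaining large clusters differed in how many of their deviations were above 0, where 58.1% of all genes lay. In the cluster from ZNF175 to ZNF331, with 33 genes, 31 deviations at 16 h and 18 h were above 0 with a median of 0.39, and its highest means were those of ZNF83 (22.3 FPKM), ZNF480 (18.6), ZNF320 (16.3), ZNF28 (12.2) and ZNF761 (10.3). In that from ZNF565 to ZNF573 all 15 were above 0, with a median of 0.50, led in level by ZNF146, ZNF529, ZNF260, ZNF566 and ZNF585A. The cluster from ZNF628 to ZNF835 had a median GC of 65.4%. Of its 11 genes 3 were 2-fold below, where 7.11% of all genes were, and 1, ZNF579, was 2-fold above, where 8.95% were. Its abundant genes included ZNF787, ZNF580, ZNF581 and ZNF444, which has a SCAN pattern.

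In the cluster from ZNF264 to ZNF446 15 of 28 deviations were above 0, with a median of 0.026, and the highest means were those of ZNF544, ZNF587, ZNF274, ZNF584 and ZNF587B. The cluster from ZNF575 to ZNF180 had 6 of 13 above 0, and ZNF428, ZNF576, ZNF283, ZNF224 and ZNF227 led it in level. The cluster from ZNF414 to ZNF846 had 6 of 11 above 0 and no gene called by JTK, where 13% of all genes were. Its highest means were those of ZNF121, ZNF317, ZNF561, ZNF266 and ZNF562. The cluster from ZNF653 to ZNF791 had 12 of 17 above 0, and ZNF700, ZNF440, ZNF791, ZNF627 and ZNF441 were highest.

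The second day was then compared with the first at matched hours, in 10 pairs of time points 24 h apart that left out 16 h, 18 h and their partners. This asks for a drift over the culture. The limma fit, adjusted over 12253 genes, called 11 of the 167 higher on the second day, 6.59%, where 12.6% of all genes were called, and 12 lower, 7.19%, where 6.8% were. Pairs of time points of 1 culture served as the replicates, so these p-values measure the spread of the day difference over the matched hours. They may be too small, since successive samples are not independent.

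Of the 11 higher genes 5 lay in the cluster of ZNF91, which had none among the 12 lower. ZNF93 averaged 6.03 FPKM over the 10 hours of the first day and 7.71 FPKM over those of the second, higher in 10 of 10 pairs, a difference of 0.31 ± 0.059 (SE) on the log2(FPKM + 1) scale (adjusted p = 0.00421). ZNF431 (0.27), ZNF675 (0.27), ZNF257 (0.28) and ZNF714 (0.19) also rose, each in 9 of 10 pairs. In 17 of the 20 genes of the cluster the second day was higher, with a median difference of 0.13, against 59 of the other 147, with a median of -0.021. With all 12 pairs, 16 h, 18 h and their partners included, the differences of ZNF93 (0.14, adjusted p = 0.431), ZNF675 (0.080, 0.728) and ZNF257 (0.15, 0.356) were no longer called. The trough at 8 h to 14 h lies within the hours of the first day.

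Outside that cluster ZNF83, which has fingers but no KRAB pattern, rose from 19.7 to 24.3 FPKM in 10 of 10 pairs, by 0.28 ± 0.045 (SE, adjusted p = 0.00140). ZNF587 had the largest rise, from 13.6 to 18.1 FPKM, by 0.39 ± 0.073 (SE, adjusted p = 0.00380), with the reservation on reads shared with ZNF417, whose difference was -0.011. ZNF69 rose by 0.35, ZNF780B by 0.34, ZNF792 by 0.33 and ZNF121 by 0.25. Their rises were seen in 9, 9, 9 and 8 of 10 pairs.

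The largest fall was that of ZNF446, whose reads may not be separate from those of ZNF324. It went from 1.58 to 0.865 FPKM, a difference of -0.43 ± 0.099 (SE, adjusted p = 0.0108), lower in 8 of 10 pairs. With all 12 pairs its difference was -0.26 and was not called (adjusted p = 0.201). ZNF574 went from 9.29 to 7.50 FPKM, a difference of -0.28. ZNF180 was lower in 10 of 10 pairs, from 4.83 to 3.88 FPKM. ZNF136 (-0.27), ZNF566 (-0.24), ZNF558 (-0.22), ZNF317 (-0.22) and ZNF45 (-0.22) also fell, as did ZNF559, ZNF613, ZNF329 and ZNF507. Only ZNF446, ZNF257 and ZNF714 were called both by JTK and between the days, and 116 of the 167 by neither test.

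PTPRC, a marker listed for lymphoid cells, was higher on the second day by 0.79 and CD3D by 0.59, where 12.6% of all genes were called higher. Of the 9 erythroid markers 2 were called lower, HBZ (-0.50) and ALAS2 (-0.56), where 6.8% of all genes were, and 0 higher. The other erythroid differences ran from -0.42 (HBG1) to 0.10 (GATA1) and were not called. These 2 lymphoid markers summed to between 19.4 and 54.7 FPKM over the series. Of the 2 fibroblast markers in the table, COL1A2, with a mean of 2.93 FPKM, was higher by 0.42 and VIM was not called (0.054, adjusted p = 0.613), and their sum lay between 107.5 and 181.6 FPKM over the series. The part of these changes in the ZNF genes was not tested.

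The corepressors through which KRAB proteins act had higher levels than the median of the ZNF genes, with means from 9.39 FPKM for ATF7IP to 405 FPKM for TRIM28 among the 22 analysed. TRIM28 ran from 324 FPKM to 592 FPKM, with 441 and 363 FPKM at 16 h and 18 h between 445 FPKM at 14 h and 336 FPKM at 20 h, a deviation of 0.049. SETDB1 had 30.7 and 28.3 FPKM at those hours and between 18.2 and 29.7 FPKM at the others. At 16 h and 18 h 6 of the 22 lay at least 2-fold above the flanks, where 8.95% of all genes did, and none below, with a median deviation of 0.61, against 0.14 for all genes. The 6 were ATF7IP, a partner of SETDB1 (1.91), the nucleosome remodeller CHD3 (1.84), MORC3 (1.22), ATRX, which loads histone H3.3 (1.22), MPHOSPH8 of the HUSH complex (1.10) and the DNA methyltransferase DNMT1 (1.09).

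JTK called 3 of the 22, where 13% of all genes were called. These were TRIM28 with phase 8 h (adjusted permutation p = 0.00585), UHRF1, which guides DNMT1 to newly copied DNA, with phase 2 h (0.00883), and FAM208A, the HUSH subunit TASOR, with phase 20 h (0.0349). Between the days 2 of the 22 were called higher, CBX5 (difference 0.34) and CHD3 (0.29), and 1 lower, CBX3 (-0.14). Of all genes 12.6% were called higher and 6.8% lower. For orientation in the cell cycle, the G1/S cyclin CCNE2 had phase 2 h (adjusted permutation p = 0.00573) and the replication helicase subunit MCM5 phase 4 h (0.00178). For CCNB1, the mitotic cyclin, the best phase was 18 h, with an adjusted permutation p of 0.139. The late set of ZNF genes was defined by phases of 18 h to 0 h, so it differed from CCNE2 and MCM5 by that choice. Of the called ZNF genes 8 had phase 4 h, that of MCM5, and no test compared the phases.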

How the data were processed

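Total RNA from 24 K562 libraries was analysed, 1 per time point, each assigned from its label. Per the submitters' processing notes the authors used STAR, Cufflinks, Cuffnorm and GRCh37, with versions not given in the sources used here. The deposited FPKM values were used as they stood. The authors' cleaned table holds a score per gene (Z-score, then quantile normalization) and served as an alternative. Depth is unknown, and Cufflinks divides reads shared by close copies.

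Gene type, symbol, order, GC content and length came from GENCODE 29 (GRCh38). KRAB, SCAN and finger patterns were searched in the longest reading frames of its transcripts, in place of a protein table, so an unmatched pattern does not show that a domain is missing. Of 167 symbols, 151 matched a RefSeq promoter.

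Deviations used log2(FPKM + 1) and genes averaging 1 FPKM or more. JTK was run in Python 3.11.15 (numpy 2.4.6) with 100000 permutations, and days were compared with limma 3.58.1 (R 4.3.3), hour as block. P-values were Benjamini-Hochberg adjusted over all genes tested and called at 0.05 or below. The scripts were tested on simulated data. Alternatives were other pseudocounts, filters, scalings, thresholds, periods and subsets of time points.

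Genes were named by rule: the 10 highest means, the 8 largest deviations in each direction at 16 h and 18 h (average of 3 FPKM or more, same sign at both), the 10 highest ranked by JTK, the 8 largest rises and falls between days, the 5 highest means of clusters with 10 or more genes, and listed genes of known role. Further called genes were named after their values were seen. The genes, lists and clusters were chosen with earlier results of these data known. Some genes of the marker and corepressor lists are not reported here.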

Additional observations from a re-analysis of the deposited data

How the results depend on the processing

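The numbers of ZNF genes past each threshold moved with the settings as follows. At 16 h and 18 h the 7 genes 2-fold above became 3 with upper-quartile scaling and 31 at a 1.5-fold threshold. Of all genes 4.73% and 23.9% were above in those settings. The 4 genes 2-fold below became 7 with a pseudocount of 0.1 and 2 among the 79 genes averaging 5 FPKM or more. They became 1 with the GC trend removed and 9 at 1.5-fold. Of all genes 10.7%, 7.54%, 3.70% and 16.8% were below in those 4 settings. The median deviation of 0.19 became 0.26 with the pseudocount of 0.1, 0.30 with that filter, 0.074 after median centring, 0.021 with upper-quartile scaling and -0.093 with the GC trend removed, where ZNF296 also turned to 0.48. In the same order the median of all genes, 0.14, became 0.16, 0.19, 0.024, -0.063 and -0.0017. At 32 h 5 genes were 1.5-fold below, against 0 at 2-fold. JTK called 31 genes, but 11 at a period of 20 h, 9 at 28 h, 19 without 6 h, 16 h, 18 h and 32 h, and 12 with the filter at 5 FPKM, where fewer genes were tested. Those were 6.59%, 5.39%, 11.4% and 15.2% of the ZNF genes tested, where 3.22%, 3.21%, 8.64% and 15.6% of all genes were called, so the excess over the table was absent with the filter. From the authors' cleaned values 27 genes were called, 20 of them shared, where 11.6% of all genes were called. Between the days, 11 higher genes became 6 with all 12 pairs and 7 with 8 pairs, where 9.57% and 8.99% of all genes were higher. The 12 lower genes became 7 of 79 with the filter at 5 FPKM and 19 after median centring, where 7.89% and 10.5% were lower. Leaving out 1 pair gave 7 to 17 higher and 9 to 13 lower genes: 7 higher without the pair at 10 h, 12 h or 14 h, and 17 without that at 22 h. Of all genes 8.68% to 15.0% were then higher and 3.69% to 8.32% lower. ZNF675, ZNF136 and ZNF257 lost their call in 9, 9 and 7 of the alternatives, ZNF93 (0.14) and ZNF446 (-0.26) with all 12 pairs, and ZNF45 (-0.20) without the pair at 12 h. The causes were not tested, other than fewer genes or samples by construction. The labels carry no replicate numbers. The comparison of days was paired by hour, and without the hour block 10 genes were higher and 15 lower, where 12.8% and 6.43% of all genes were.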
